A study of Mus musculus with 14 samples.

Results

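The genes of the constitutive proteasome subunits were taken from the table as every symbol made of Psma, Psmb, Psmc or Psmd and a number, leaving out Psmb8, Psmb9 and Psmb10, which encode the interferon-inducible catalytic subunits. This rule, which uses no measured value, found 36 of the 43346 genes: 8 Psma, 8 Psmb, 6 Psmc and 14 Psmd genes. Of these, 34 passed the filter on low counts and were tested in each comparison. Across brain tissue of APP/PS1 and control mice none of the 34 changed past the adjusted threshold. In APP/PS1 mice given the complex I inhibitor CP2, compared with APP/PS1 mice without it, most log2 fold changes were negative. They lay below 0 for 33 of the 34, against 52.5% of all genes tested. The median over the 34 was -0.07 there, and 0.01 in APP/PS1 against NTG mice.

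The 26S proteasome degrades proteins tagged with ubiquitin. Its 20S core particle is a barrel of stacked rings, in which the outer rings of alpha subunits (Psma genes) gate the entrance and the inner rings of beta subunits (Psmb genes) hold the active sites, of caspase-like activity at beta 1 (Psmb6), trypsin-like at beta 2 (Psmb7) and chymotrypsin-like at beta 5 (Psmb5). The 19S regulatory particle caps the barrel. Its ring of ATPases (Psmc genes) unfolds the substrate, and its other subunits (most Psmd genes) bind ubiquitin chains, remove them, or form the scaffold and the lid. Under interferon the inducible subunits Psmb9, Psmb10 and Psmb8 take the places of Psmb6, Psmb7 and Psmb5 and form the immunoproteasome. Subunit genes are known to be transcribed together, with Nfe2l1 raising them when the proteasome is inhibited, and impaired protein degradation is a known feature of brains with amyloid and tau deposits.

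RNA was sequenced from brain tissue spanning hippocampal and cortical regions of 14 female mice of the strain labelled C57BL/6;SJL-Tg, all aged 23 months. The 3 groups were 4 non-transgenic littermates (NTG), 5 APP/PS1 mice, double transgenic animals that carry human APP and PS1 transgenes and deposit amyloid, whose genotype label reads APP/PS1 +/+, and 5 APP/PS1 mice given CP2, an inhibitor of mitochondrial complex I. CP2 was given at 25 mg/kg/day in drinking water with 0.1% PEG from 9 months of age, for 14 months, while the other mice, labelled non-treated, had the same water without CP2. NTG mice given CP2 were not analysed here, so a response to CP2 could be read only in transgenic mice, and the promoters of the transgenes are not given in the sources used here. The numbers that name the mice are those of the labels (NTG 7 to 10, APP/PS1 16 to 20, CP2-treated APP/PS1 21 to 25). As the tissue was sequenced in bulk, fewer cells of a type and less RNA per cell cannot be told apart.

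Total counts ranged from 70548781 to 106235625 per library, so that 1 count was worth 0.00918 to 0.0149 CPM (counts scaled to library size), and Yam1 and AY036118, which match ribosomal RNA, took 2.40% to 7.50% of them. APP/PS1 mouse 16 stood apart: its summed level of 6 striatum markers was 1990 CPM, against 151 to 279 CPM in the other 13 mice, and results are given without it where they moved. All 7 neuron markers and all 5 hippocampus and cortex markers had counts in every mouse. The 6 microglia markers summed to 300.4 to 318 CPM in NTG mice, 564 to 739 CPM in APP/PS1 mice without CP2 and 462 to 695 CPM with it, and the 5 astrocyte markers to 1366 to 1617, 1960 to 3947 and 2235 to 3360 CPM.

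The name constitutive did not hold for every gene that the rule took. Psma8 encodes the alpha subunit of spermatocytes, and Psmb11 encodes beta 5t, the catalytic subunit of the cortical epithelium of the thymus. Neither reached 1 CPM in any mouse, and neither was tested. Psma8 reached at most 0.919 CPM (73 counts, APP/PS1 mouse 19) and Psmb11 at most 0.704 CPM (61 counts, CP2-treated mouse 21), and both had counts in every mouse. Of the tested genes the lowest count in any mouse was 836, for Psmd10. The other 34 genes were thus measured well above the counting limit in every library.

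Levels are compared between genes as RPKM, read counts divided by gene length and by sequencing depth. Over the 14 mice the mean level of the 34 genes ranged from 3.38 RPKM for Psmd9, a chaperone of base assembly that leaves the finished particle, to 78.9 RPKM for Psmb1, a non-catalytic beta subunit. Medians over genes were 59.7 RPKM for the 7 beta ring genes, 39.1 RPKM for the 6 ATPase genes, 24.6 RPKM for the 7 alpha ring genes and 17.3 RPKM for the 14 other regulatory particle genes. The 3 catalytic subunits stood at 71.7 ± 5.25 RPKM for Psmb5, 68.7 ± 6.33 RPKM for Psmb7 and 29.2 ± 2.41 RPKM for Psmb6 (SD, n = 14). The lowest 4 were Psmd5, Psmd10, Psmd11 and Psmd9, of which Psmd5, Psmd10 and Psmd9 encode chaperones of base assembly and Psmd11 a lid subunit. In this order the ranges over mice of neighbouring genes overlapped for 30 of 35 pairs, so that the order is one of tiers and not of single genes.

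**Figure D1:**
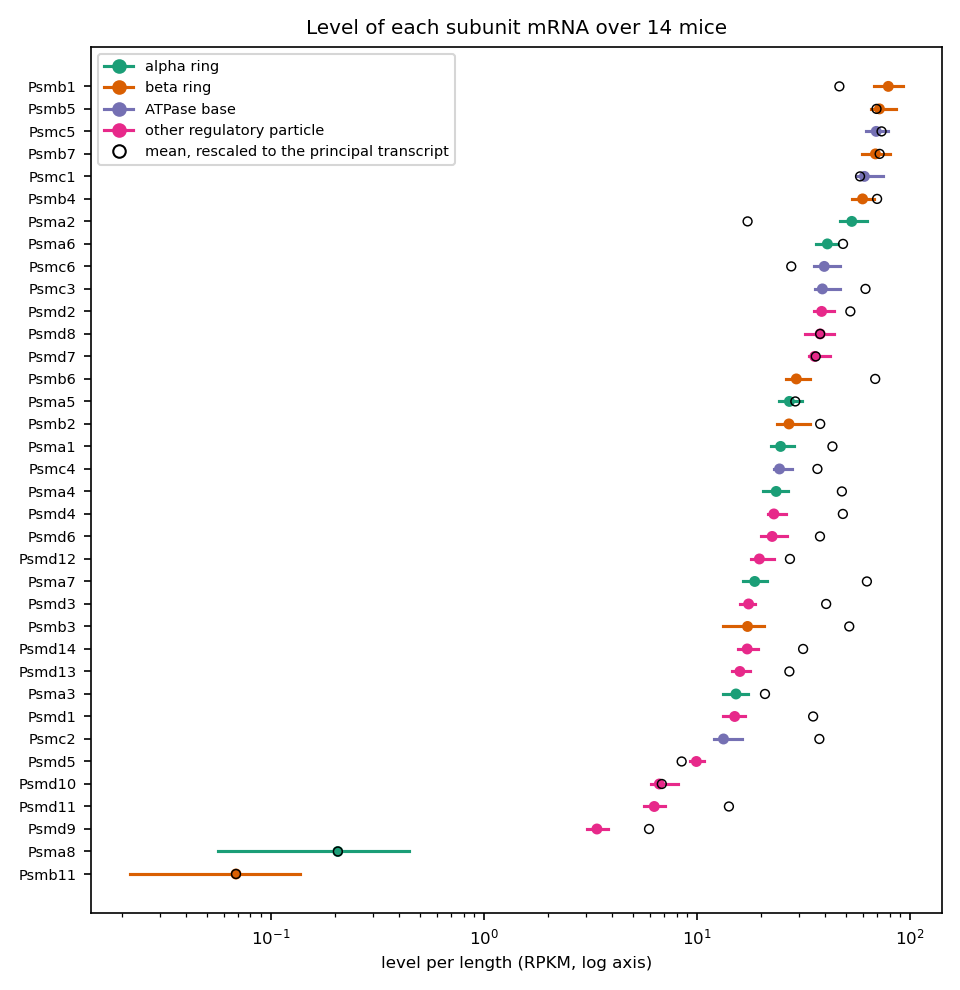
Mean level per length of each of the 36 subunit genes over 14 mice (filled points, RPKM on a log axis), with a line from the lowest to the highest mouse and colours for the part of the proteasome. Open circles show the same mean rescaled to the length of the gene's principal transcript. Psmd9 is the lowest gene tested at 3.38 RPKM and Psmb1 the highest at 78.9 RPKM, with Psma8 and Psmb11 far below.

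The RPKM use the gene lengths of the deposited table. How these were made is not given in the sources used here, and they equal the length of all annotated exons in GENCODE M21 for 18 of the 36 genes. The lengths were 0.324 times (Psma2) to 3.36 times (Psma7) the length of the principal transcript in that annotation. Rescaled to the principal transcript, the means spanned 12.3-fold in place of 23.3-fold. The beta ring stayed the part with the highest median, 68.5, against 47.8 for the ATPases, 43.1 for the alpha ring and 33.2 for the other regulatory particle genes. Psmb6 then stood at 68.5, beside Psmb5 at 69.5 and Psmb7 at 71.9, so the lower RPKM of this catalytic subunit depended on the length used. Single genes moved by many places, Psma7 from place 23 to place 6 and Psma2 from place 7 to place 30. Psmd9, Psmd10, Psmd5 and Psmd11 stayed the lowest 4.

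In the annotation, 9 of the 36 genes share exon bases with another gene, to which the counting assigned such reads as well. The shared part was at most 25.5% of the exon bases, for Psmd9 with Gm26745, and was 12.1% for Psmb5 with Mir686 and 11.8% for Psmb7 with Nek6. Of the inducible subunit genes, compared with these below, Psmb8 shares 14.7% with Gm20496 and Psmb9 5.79% with Tap1, while Psmb10 shares none. The strand setting is not given in the sources used here, so reads of these genes and of an overlapping partner cannot be told apart within those bases. The 4 listed pseudogenes with these symbols (Psm and "-ps") had at most 0.240 RPKM (20 counts) in any mouse.

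As the subunit genes are known to share promoter elements, 300 bases around the start of each gene (250 before and 50 after, RefSeq, GRCm38.p6) were searched on both strands for the core of the antioxidant response element, TGACNNNGC, the site of Nfe2l1 and Nfe2l2, and for the CCAAT box, the site of NF-Y. Windows were at hand for 29 of the 36 genes, not for Psma8, Psmb1, Psmb2, Psmb7, Psmc3, Psmd3 and Psmd7. TGACNNNGC occurred in 5 of the 29 (17.2%), against 13.99% of all 27025 genes in the table, and CCAAT in 12 of the 29 (41.4%), against 41.1%. No gene of the 29 held both, so the matches did not overlap. Both shares were close to those of all genes. The 5 genes with TGACNNNGC were Psmb5 (first base at position -47), Psmb6 (-9) and Psmd9 (-31), on the strand of the gene, and Psmc6 (-227) and Psmd12 (-247), on the other strand. The windows of the first 3 are shown with that of Psmd11, the lid subunit whose values went another way from most subunits below and whose window held neither pattern. They run 5′ to 3′ on the strand of the gene, with the match to TGACNNNGC in capitals.
Psmb5 (chr14:54617946-54618245, minus strand): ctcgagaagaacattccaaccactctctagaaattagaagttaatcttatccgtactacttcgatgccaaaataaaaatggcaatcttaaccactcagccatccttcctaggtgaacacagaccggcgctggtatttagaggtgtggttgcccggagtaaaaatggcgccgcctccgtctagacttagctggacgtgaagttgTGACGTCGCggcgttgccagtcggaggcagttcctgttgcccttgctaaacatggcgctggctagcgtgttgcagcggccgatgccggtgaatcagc
Psmb6 (chr11:70525107-70525406, plus strand): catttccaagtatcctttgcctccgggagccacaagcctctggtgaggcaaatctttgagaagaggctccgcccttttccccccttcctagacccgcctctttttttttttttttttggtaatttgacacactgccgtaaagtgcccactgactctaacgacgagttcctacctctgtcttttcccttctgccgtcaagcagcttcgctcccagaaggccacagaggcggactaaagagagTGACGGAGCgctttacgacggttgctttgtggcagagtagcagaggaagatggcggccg
Psmd9 (chr5:123227940-123228239, plus strand): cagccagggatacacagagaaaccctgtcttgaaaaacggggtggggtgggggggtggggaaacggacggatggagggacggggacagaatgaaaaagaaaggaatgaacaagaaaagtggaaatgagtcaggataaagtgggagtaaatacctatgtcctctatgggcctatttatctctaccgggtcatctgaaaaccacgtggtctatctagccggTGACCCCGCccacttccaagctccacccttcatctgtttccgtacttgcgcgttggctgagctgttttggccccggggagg
Psmd11 (chr11:80428365-80428664, plus strand): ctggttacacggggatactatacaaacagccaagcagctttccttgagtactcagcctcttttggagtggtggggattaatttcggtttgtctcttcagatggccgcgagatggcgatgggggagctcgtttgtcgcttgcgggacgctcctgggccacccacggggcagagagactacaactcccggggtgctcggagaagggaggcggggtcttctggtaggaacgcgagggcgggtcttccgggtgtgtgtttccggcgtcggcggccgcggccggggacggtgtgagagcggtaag

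The subunit mRNAs varied less between mice than the median gene tested and varied together. Within groups, the SD of log2 CPM had a median of 0.0865 over the 34 genes, against 0.130 over the 16521 genes tested in at least 1 comparison. These sets were not matched for expression level, and the part of level in this difference was not tested. The SD was lowest for Psmd3, a lid subunit, at 0.0386, and highest for Psmb3, a non-catalytic beta subunit, at 0.164. With the group means removed, the correlation over the 14 mice had a median of 0.65 over the 561 pairs of subunit genes and was above 0 in 93.6% of them, while its median over all pairs of genes was 0.00272. Without mouse 16 the median over the subunit pairs was 0.66. These correlations describe 14 libraries, and the genes of a pair share library, depth and tissue piece.

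The core particle genes moved most closely together. The median correlation was 0.86 within the alpha ring, 0.88 within the beta ring and 0.86 over both rings, with all 91 pairs above 0, against 0.56 within the ATPases and 0.51 within the other regulatory particle genes. By gene, the median correlation with the other subunits was highest for Psmb7, at 0.82, and Psma1, at 0.81. It was 0.39 for Psmd2 and 0.43 for Psmd1, the scaffold subunits of the base, 0.00 for Psmd11 and -0.13 for Psmd3. Other genes also differed in this measure by exon length: their median correlation with the subunits was 0.18 for the 2489 genes of 1000 to 2000 bases and -0.20 for the 1857 genes over 8000 bases. The part of length in the correlation of the subunits was not tested.

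**Figure D2:**
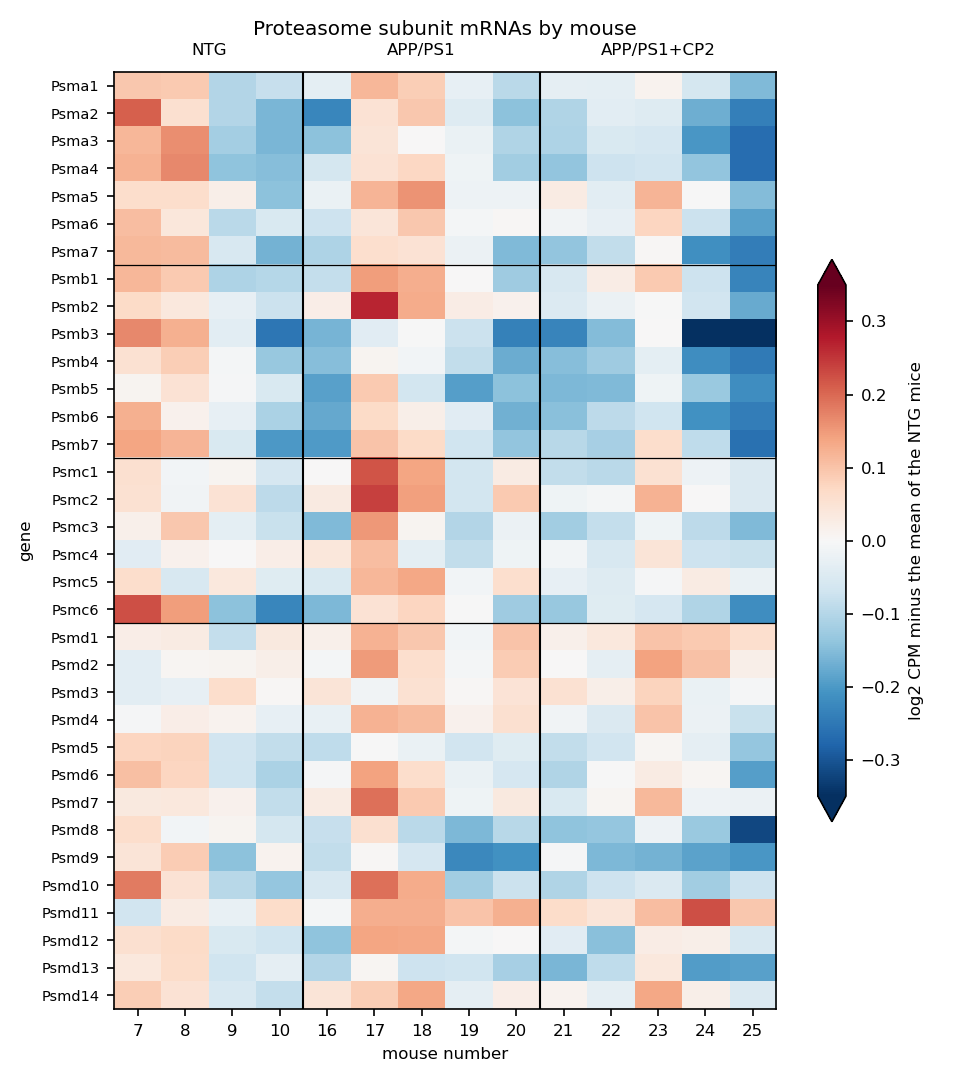
Log2 CPM of the 34 tested subunit genes (rows, ordered by symbol) in each of the 14 mice (columns, by mouse number), relative to the mean of the NTG mice, with red above and blue below. Colour differs between mice of the same group: mice 7, 8, 17 and 18 are red in most rows and so, less fully, is CP2-treated mouse 23. The other mice are blue in most rows, among them CP2-treated mice 21, 22, 24 and 25. Psmd11 is an exception in mouse 25.

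A mouse was high or low across most subunits at once. Relative to each gene's mean over all mice, the median deviation of the 34 genes was highest in APP/PS1 mouse 17, at 0.11 on the log2 scale, where 33 of the 34 genes were above their mean, and in NTG mouse 7, at 0.11, with 28 above. It was lowest in CP2-treated mouse 25, at -0.13, with 2 genes above. NTG mice ranged from -0.07 to 0.11, APP/PS1 mice from -0.04 to 0.11 and CP2-treated mice from -0.13 to 0.05. The groups overlapped. NTG and APP/PS1 mice lay on both sides of 0. Among CP2-treated mice only mouse 23 was above 0, at 0.05, and mice 21, 22, 24 and 25 were below. The median over all genes tested was between -0.0135 and 0.0135 in every mouse. The ribosomal RNA-like share was highest in NTG mouse 8 and CP2-treated mouse 23 (7.50% and 7.40%), with subunit medians of 0.08 and 0.05, but low in APP/PS1 mouse 17 (2.68%), and its part was not tested beyond the fit with this share as a covariate, given further on.

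**Figure D3:**
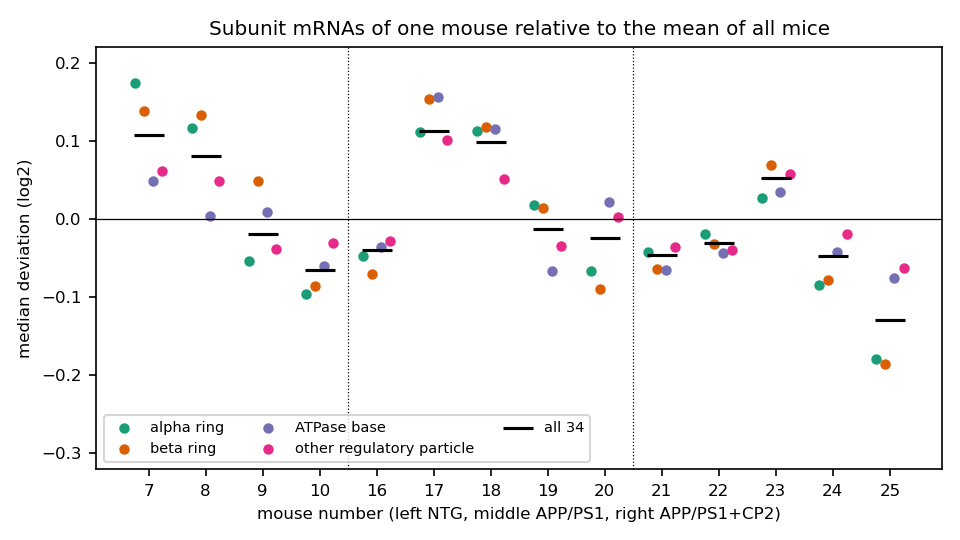
Median deviation (log2) of the subunit genes of each part from their mean over all mice, for each mouse (coloured points), with a bar for all 34 genes. The bars run from 0.11 in mouse 17 to -0.13 in mouse 25, and NTG, APP/PS1 and CP2-treated mice overlap.

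The comparison of APP/PS1 with NTG mice asked whether the subunit mRNAs differed in aged transgenic brain. None of the 34 genes passed the adjusted threshold by edgeR's quasi-likelihood test (adjusted p under 0.05 by Benjamini-Hochberg over all genes), by which 5.68% of all genes tested were called, and none was called by DESeq2. None had an unadjusted p under 0.05, against 18.7% of all genes, and none had groups that did not overlap, against 9.97%. Log2 fold changes ran from -0.12 to 0.09, with 19 above 0 and 15 below. Their median was 0.01, against -0.00421 over all genes tested. The 95% intervals of all 34 included 0 and lay between -0.30 and 0.23.

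By part, the median log2 fold change was -0.02 for the alpha ring, -0.06 for the beta ring, 0.03 for the ATPases and 0.03 for the other regulatory particle genes. In the beta ring 5 of 7 genes were below 0, and among the other regulatory particle genes 10 of 14 were above 0. Leaving out each mouse in turn moved the median of the 34 between -0.02 and 0.04, so its sign rested on single mice. Without NTG mouse 10 or APP/PS1 mouse 17, 2 genes had an unadjusted p under 0.05, and without NTG mouse 9 or APP/PS1 mouse 16, 1 gene did.

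**Figure D4:**
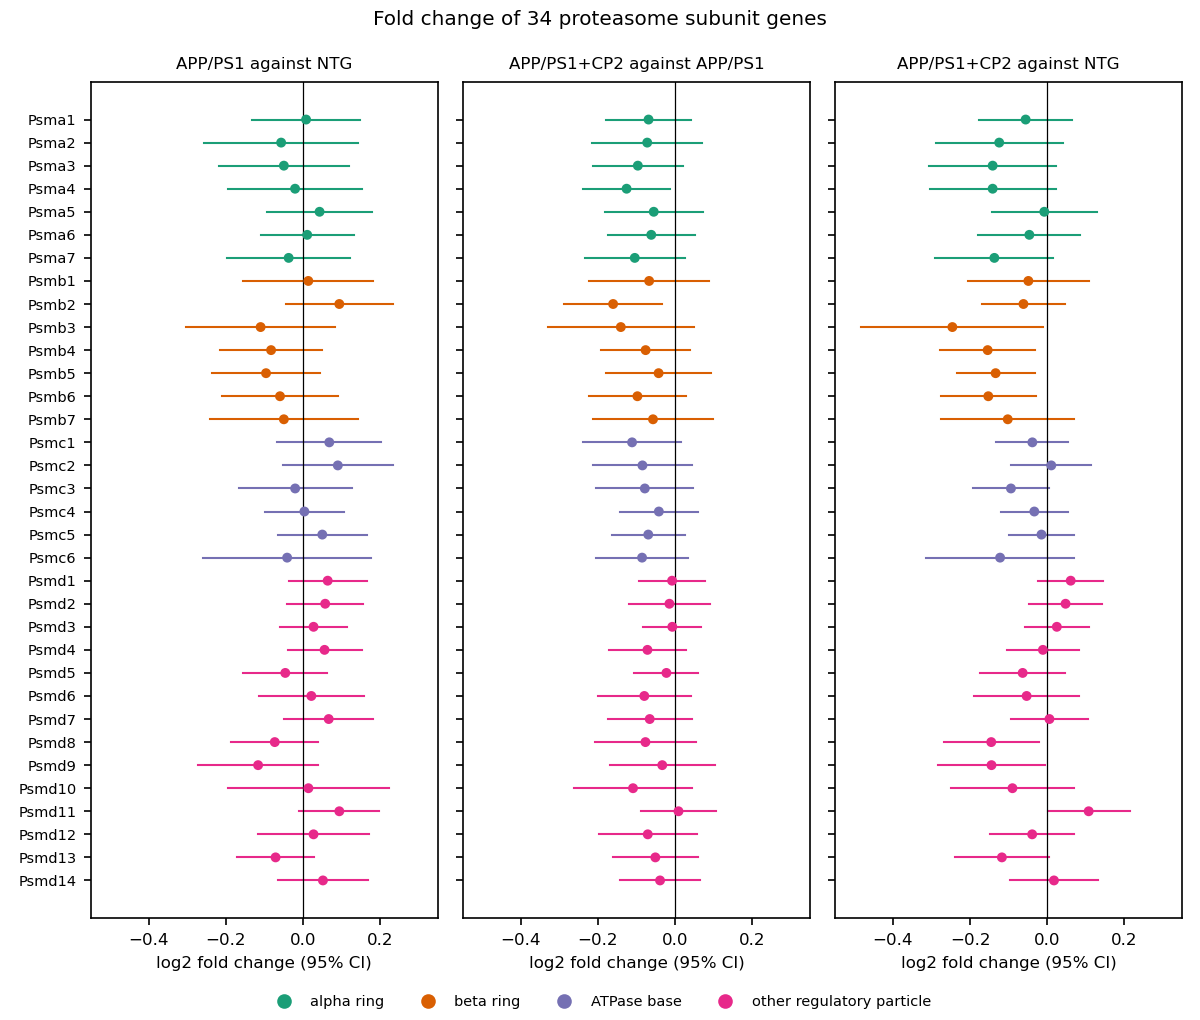
Log2 fold change of each of the 34 tested subunit genes (points) with its 95% interval (lines), in 3 panels for the 3 comparisons, coloured by part of the proteasome. In the left panel all intervals include 0, in the middle panel all points but Psmd11 lie below 0, and in the right panel the beta ring points lie below 0 and Psmd11 above.

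The smallest p of this comparison belonged to Psmd11 (chr11:80428615-80473248, mm10), a lid subunit. Its level was 44.1, 47.2, 45.4 and 48.3 CPM in NTG mice and 46.0, 50.5, 50.5, 49.5 and 50.4 CPM in APP/PS1 mice. In 4 of the 5 APP/PS1 mice it stood above every NTG mouse, with mouse 16 within their range. The log2 fold change was 0.09 (SE 0.05, adjusted p = 0.316 by edgeR). Psmb2 (chr4:126677630-126709714), a non-catalytic beta subunit, was next on this side, at 40.9, 40.0, 38.2 and 37.0 CPM in NTG and 39.6, 46.9, 42.6, 39.7 and 39.4 CPM in APP/PS1 mice, where mice 17 and 18 alone exceeded the NTG range. Its log2 fold change was 0.09 (SE 0.06, adjusted p = 0.476).

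On the other side stood Psmd9 (chr5:123228190-123250131), the base chaperone, at 20.6, 21.2, 18.03 and 20.1 CPM in NTG and 18.8, 19.96, 19.1, 17.03 and 17.2 CPM in APP/PS1 mice. APP/PS1 mice 19 and 20 lay below all NTG mice and the other 3 within their range, with a log2 fold change of -0.12 (SE 0.07, adjusted p = 0.432). Psmd13 (chr7:140881968-140898643), a lid subunit, was at 70.2, 71.6, 65.2 and 67.0 CPM in NTG and 63.7, 68.8, 65.1, 65.2 and 63.2 CPM in APP/PS1 mice. Its groups overlapped through mouse 17, and the log2 fold change was -0.07 (SE 0.04, adjusted p = 0.453).

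The comparison of CP2-treated with vehicle-treated APP/PS1 mice asked what 14 months of the complex I inhibitor did to the subunit mRNAs. The log2 fold change was below 0 for 33 of the 34 genes (97.1%), against 52.5% of all genes tested. Their median was -0.07, against -0.00596 over all genes, and the range was -0.16 to 0.01. None of the 34 was called at an adjusted p under 0.05 by edgeR or by DESeq2, in a comparison where 0.00609% of all genes were called, a single gene. With 2 genes at an unadjusted p under 0.05 the share was 5.88% where the background was 6.55%. The groups did not overlap for 1 gene, Psmb2, against 1.18% of all genes.

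The direction was shared by every part. All 7 alpha ring genes (median -0.07), all 7 beta ring genes (-0.08), all 6 ATPases (-0.08) and 13 of the 14 other regulatory particle genes (-0.04) were below 0. As the subunit genes varied together between mice, the 33 genes were not independent of each other, and all rested on the same 10 mice. Leaving out each mouse in turn, 30 to 33 genes stayed below 0, with medians of -0.10 (without CP2-treated mouse 23) to -0.05 (without APP/PS1 mouse 17). Without APP/PS1 mouse 16 the median was -0.09 and 33 genes were below 0. With the ribosomal RNA-like share as a covariate the median was -0.08 and again 33 were below 0, but no gene had an unadjusted p under 0.05. The number of genes with an unadjusted p under 0.05 was 7 without CP2-treated mouse 23, 4 without APP/PS1 mouse 19, and 1 without any one of mice 17, 18, 21, 24 and 25.

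Psmb2 was at 39.6, 46.9, 42.6, 39.7 and 39.4 CPM in vehicle-treated and 37.7, 38.4, 39.0, 37.2 and 34.5 CPM in APP/PS1 mice given CP2. Every CP2-treated mouse lay below every vehicle-treated mouse, by a small margin (39.0 against 39.4 CPM at the nearest). The log2 fold change was -0.16 (SE 0.06, unadjusted p = 0.0179 and adjusted p = 0.744 by edgeR). In NTG mice Psmb2 ranged from 37.0 to 40.9 CPM, so the vehicle-treated APP/PS1 mice reached above both other groups.

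Psma4 (chr9:54950790-54958030), an alpha subunit, was at 67.0, 72.4, 73.4, 69.2 and 64.3 CPM in vehicle-treated and 63.5, 66.5, 66.8, 63.5 and 58.1 CPM in APP/PS1 mice given CP2. The groups overlapped through the vehicle-treated mouse 20, and the log2 fold change was -0.13 (SE 0.05, unadjusted p = 0.0314, adjusted p = 0.744). Psmd11 was the single gene above 0, with 46.0 to 50.5 CPM in vehicle-treated and 48.4, 47.6, 49.9, 54.1 and 49.3 CPM in CP2-treated mice. Its log2 fold change was 0.01 (SE 0.04, adjusted p = 0.969), and it was -0.02 without CP2-treated mouse 24, -0.01 without vehicle-treated mouse 16 and -0.01 with the ribosomal RNA-like share as a covariate.

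The third comparison set CP2-treated APP/PS1 mice against the same NTG mice as the first and the same CP2-treated mice as the second, so it adds no independent samples. None of the 34 genes was called at an adjusted p under 0.05 by edgeR or DESeq2, against 6.02% of all genes, and none had groups that did not overlap, against 9.73%. At an unadjusted p under 0.05 there were 7 genes by edgeR (20.6%), where the background was 20.2%, and 8 by DESeq2. Of the 7, the 6 below 0 were the beta ring genes Psmb3, Psmb4, Psmb5 and Psmb6 and the regulatory particle genes Psmd8, of the lid, and Psmd9, and the 1 above 0 was Psmd11. In all, 27 genes were below 0 and the median log2 fold change was -0.06, against -0.00154 over all genes.

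The parts differed in their medians here: -0.12 for the alpha ring and -0.13 for the beta ring, each with 7 of 7 genes below 0, and -0.04 for the ATPases and -0.02 for the other regulatory particle genes, with 5 of 6 and 8 of 14 below 0. This difference between parts was not tested. The number of genes with an unadjusted p under 0.05 moved with single mice, to 2 and 3 without NTG mice 7 and 8, to 4 without CP2-treated mouse 24 or 25, and to 12 without NTG mouse 10.

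Of the 7 genes, Psmb5 had the smallest p. This gene of the chymotrypsin-like subunit (chr14:54614120-54617995) was at 80.7, 83.0, 80.0 and 77.3 CPM in NTG mice, 70.4, 85.5, 76.8, 70.2 and 72.6 CPM in APP/PS1 mice without CP2, and 71.9, 72.0, 79.4, 73.3 and 69.0 CPM in APP/PS1 mice given CP2. In 4 of the 5 CP2-treated and 4 of the 5 vehicle-treated APP/PS1 mice it stood below all NTG mice, with mouse 23 within their range and mouse 17 above it. The log2 fold change of CP2-treated APP/PS1 against NTG mice was -0.13 (SE 0.05, unadjusted p = 0.0142, adjusted p = 0.128), that of APP/PS1 against NTG mice -0.10 (SE 0.06, adjusted p = 0.471) and that of CP2-treated APP/PS1 mice against vehicle-treated ones -0.04 (SE 0.06, adjusted p = 0.889). Without CP2-treated mouse 23 the first of these was -0.17 with an adjusted p of 0.0377 by edgeR, the single one of the settings run in which a subunit gene was called. Without mouse 17 the last of them was 0.01.

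Psmb6, of the caspase-like subunit (chr11:70525367-70527858), was at 76.0, 70.5, 68.4 and 64.5 CPM in NTG mice, 61.6, 73.0, 70.7, 67.8 and 62.0 CPM in APP/PS1 mice without CP2, and 63.0, 65.5, 66.5, 60.2 and 59.0 CPM in APP/PS1 mice given CP2. The CP2-treated mice 22 and 23 reached into the NTG range, and the log2 fold change against NTG was -0.15 (SE 0.06, unadjusted p = 0.0191, adjusted p = 0.150). It was -0.06 in APP/PS1 against NTG mice (adjusted p = 0.7098) and -0.10 in CP2-treated APP/PS1 mice against vehicle-treated ones (adjusted p = 0.757).

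Psmb7, of the trypsin-like subunit (chr2:38588036-38644087), was at 115, 114, 101 and 90.9 CPM in NTG mice, 91.1, 112, 109, 99.7 and 95.1 CPM in APP/PS1 mice without CP2, and 97.9, 96.6, 109, 98.4 and 87.2 CPM in APP/PS1 mice given CP2. The 3 groups overlapped widely, and NTG mice alone spanned 90.9 to 115 CPM. Log2 fold changes were -0.05 for APP/PS1 against NTG (adjusted p = 0.820), -0.06 for APP/PS1 mice with against without CP2 (adjusted p = 0.871) and -0.10 for CP2-treated APP/PS1 against NTG mice (adjusted p = 0.517).

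On the upper side, Psmd11 at 47.6 to 54.1 CPM in CP2-treated mice against 44.1 to 48.3 CPM in NTG mice had a log2 fold change of 0.11 (SE 0.05, unadjusted p = 0.0480, adjusted p = 0.242). The groups overlapped through CP2-treated mouse 22 and NTG mouse 10. Psmd1 (chr1:86064387-86139151), the large scaffold subunit of the base, followed at 130.0, 131, 121 and 131 CPM in NTG and 129.6, 131, 137, 136 and 133 CPM in CP2-treated mice, with a log2 fold change of 0.06 (SE 0.04, adjusted p = 0.416). NTG mouse 9 set the lower end of its range, and CP2-treated mice 22, 23, 24 and 25 exceeded all NTG mice.

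At the beta 1 and beta 5 places the balance of inducible to constitutive subunit mRNA was higher in both groups of APP/PS1 mice than in NTG mice. The balance was taken within each mouse as the log2 ratio of normalized counts (with 0.5 added), and compared by an exact two-sided permutation test, adjusted over the 9 tests of 3 places and 3 comparisons. The smallest p these group sizes allow is 0.00794.

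For Psmb8 over Psmb5, at beta 5, the log2 ratio was -4.98, -4.63, -4.68 and -4.52 in NTG mice, -3.38, -3.21, -2.57, -2.81 and -2.99 in APP/PS1 mice and -3.16, -3.28, -3.55, -3.62 and -3.26 in CP2-treated APP/PS1 mice. All APP/PS1 mice, treated or not, stood above all NTG mice. The difference was 1.71 for APP/PS1 against NTG and 1.33 for CP2-treated APP/PS1 against NTG mice (exact permutation p = 0.00794 and adjusted p = 0.0238 in both), and -0.38 for CP2-treated APP/PS1 mice against vehicle-treated ones (exact p = 0.0635, adjusted p = 0.107). By RPKM, Psmb8 made up 1.21 ± 0.157% of Psmb8 and Psmb5 together in NTG mice (SD, n = 4), 3.92 ± 0.836% in APP/PS1 mice and 3.001 ± 0.398% with CP2 (SD, n = 5 each), so Psmb5 remained by far the larger part.

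For Psmb9 over Psmb6, at beta 1, the log2 ratio was -5.46, -4.98, -4.80 and -5.08 in NTG mice, -4.52, -4.09, -3.20, -3.79 and -3.76 in APP/PS1 mice and -4.18, -4.14, -4.24, -4.22 and -4.00 in CP2-treated APP/PS1 mice. Again no NTG mouse reached the lowest APP/PS1 mouse, mouse 16. The difference was 1.21 for APP/PS1 (exact permutation p = 0.0159, adjusted p = 0.0357) and 0.92 for CP2-treated APP/PS1 mice (exact p = 0.00794, adjusted p = 0.0238) against NTG, and -0.29 for CP2-treated APP/PS1 mice against vehicle-treated ones (exact p = 0.238, adjusted p = 0.268). Without APP/PS1 mouse 16, which stood apart in striatum markers, this last difference was -0.45 and that at beta 5 was -0.48, each with an adjusted p of 0.0429 by the exact permutation test.

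For Psmb10 over Psmb7, at beta 2, the ratio differed less. It ranged from -1.90 to -1.61 in NTG, from -1.74 to -1.48 in untreated APP/PS1 mice, and with CP2 from -1.91 to -1.67, and the groups overlapped. The differences were 0.14 for APP/PS1 against NTG (exact permutation p = 0.167, adjusted p = 0.214), -0.16 for APP/PS1 mice with against without CP2 (exact p = 0.0714, adjusted p = 0.107) and -0.03 for CP2-treated APP/PS1 against NTG mice (exact p = 0.722, adjusted p = 0.722). Psmb10 made up 22.2 ± 1.88% of the RPKM of the pair in NTG mice (SD, n = 4), a far larger share than at the other places. The RPKM shares depend on the deposited gene lengths. These were 1.68 times the principal transcript for Psmb8 and 0.969 times for Psmb5, and 0.969 times for Psmb10 and 1.05 times for Psmb7. They were 2.71 times for Psmb9 and 2.35 times for Psmb6. Shares rescaled to the principal transcripts were not computed.

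**Figure D5:**
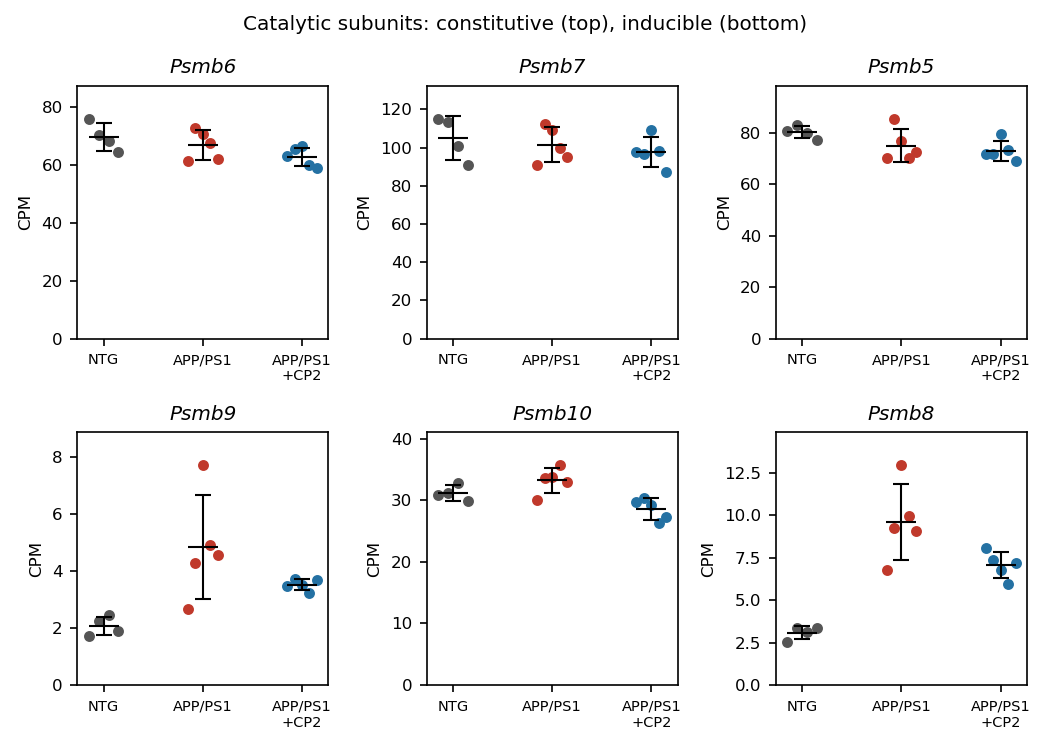
Level (CPM, axes from 0) of the constitutive catalytic subunits Psmb6, Psmb7 and Psmb5 (top) and of the inducible subunits that replace them, Psmb9, Psmb10 and Psmb8 (bottom), in each mouse (points) with group mean and SD (bars). The top panels overlap between groups, while Psmb8 and Psmb9 are lower in all 4 NTG mice than in all APP/PS1 mice.

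The microglia and astrocyte marker sums given above separated NTG from APP/PS1 mice as Psmb8 and Psmb9 did, while Psmb10 overlapped. All APP/PS1 mice, treated or not, exceeded all NTG mice in both sums and in the CPM of Psmb8 and Psmb9. Whether the sums and these genes varied together within groups was not tested. The part of these cells in the ratios was not tested. In the fit of all genes, Psmb8 rose from 3.09 ± 0.379 CPM in NTG (SD, n = 4) to 9.61 ± 2.218 CPM in APP/PS1 mice without CP2, and 7.08 ± 0.780 CPM in those given CP2 (SD, n = 5 each), with log2 fold changes of 1.64 (SE 0.18, adjusted p = 0.000597 by edgeR) and 1.19 (SE 0.12, adjusted p = 0.000352). Psmb9 rose from 2.07 ± 0.323 to 4.83 ± 1.82 and 3.52 ± 0.200 CPM, by 1.22 (SE 0.27, adjusted p = 0.0241) and 0.76 (SE 0.12, adjusted p = 0.00326). The first of the Psmb9 calls was lost without any one NTG mouse or without APP/PS1 mouse 19 (adjusted p 0.0531 to 0.0718), and the second with all 3 groups in 1 fit (adjusted p = 0.0750). Psmb10, with 31.2 ± 1.26, 33.2 ± 2.06 and 28.6 ± 1.73 CPM, was called in neither. In CP2-treated APP/PS1 mice against vehicle-treated ones it had the smallest p of any gene on the pathway lists, with a log2 fold change of -0.22 (SE 0.06, unadjusted p = 0.00204, adjusted p = 0.744).

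The other genes of the pathway, taken from lists of regulators, activators, assembly factors and ubiquitin genes, were mostly not called by edgeR. With the inducible subunits counted in, 3 of the 45 listed genes tested were called in APP/PS1 against NTG mice by edgeR, where 5.68% of all genes were. DESeq2 called 5 listed genes there, and 1667 genes in all. In CP2-treated APP/PS1 against NTG mice edgeR called Psmb8, Psmb9, Nfe2l2 and Psme4, where 6.02% of all genes were called. The other fits called 2 to 5 listed genes in that comparison. Of the 8 transcriptional regulators, 1 was called higher than in NTG mice by edgeR, Nfe2l2, which encodes the stress-responsive factor Nrf2. It went from 16.6 ± 1.64 CPM in NTG (SD, n = 4) to 26.1 ± 2.94 in APP/PS1 mice and 23.8 ± 2.88 in those given CP2 (SD, n = 5 each), by 0.65 (SE 0.10, adjusted p = 0.00317 by edgeR) and 0.52 (SE 0.10, adjusted p = 0.00989). Its relative Nfe2l1, known for raising subunit genes, did not pass in any comparison.

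Of the 5 activators and inhibitors, 1 was called by edgeR, Psme4, which encodes the activator PA200. It was at 51.5 ± 2.28 CPM in NTG, 55.2 ± 3.63 in APP/PS1 mice and 58.3 ± 2.249 in those given CP2, and rose by 0.18 (SE 0.05, adjusted p = 0.0410) in CP2-treated APP/PS1 against NTG mice. This call was lost in 3 of the other fits (adjusted p 0.0667 to 0.0814) and without any one of 7 of the 9 mice (0.0528 to 0.121). In APP/PS1 against NTG mice the smallest p of that list was for Psme1, of the interferon-inducible activator PA28, with a log2 fold change of 0.23 (SE 0.06, adjusted p = 0.0660).

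Of the 6 assembly factors tested, the 7 other regulatory particle parts and partners and the 16 genes for ubiquitin, its E1 enzymes, the segregase Vcp and shuttle factors, none was called in any comparison by edgeR. At an unadjusted p under 0.05, the assembly factors held 1 gene in each comparison, the parts and partners 0, 1 and 1, and the ubiquitin genes 1, 2 and 1. The share of all genes tested at this threshold was 18.7%, 6.55% and 20.2% in the same order of comparisons. In APP/PS1 against NTG mice the smallest p values among the assembly factors and among the parts and partners were those of Psmg3, a chaperone of alpha ring assembly, at a log2 fold change of -0.16 (adjusted p = 0.210), and AI314180, which encodes the proteasome partner Ecm29, at 0.04 (adjusted p = 0.628).

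In CP2-treated APP/PS1 mice against vehicle-treated ones the corresponding genes of these lists had log2 fold changes below 0. They were Psmg2, the partner of Psmg1 in alpha ring assembly, at -0.19, and Shfm1, the small regulatory subunit also called Sem1, at -0.21, each with an adjusted p of 0.744. In CP2-treated APP/PS1 against NTG mice they were Psmg2 at -0.15 (adjusted p = 0.208) and AI314180 at 0.11 (adjusted p = 0.189), and among the ubiquitin genes Ubb, a polyubiquitin gene, at -0.15 (adjusted p = 0.119).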

How the data were processed

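The authors aligned paired-end reads to mm10 using TopHat2 and obtained gene counts from featureCounts (Subread) with Ensembl definitions, where reads in shared regions counted for every gene there. Deposited were raw read counts and the authors' RPKM values of 14 mice. The strand setting and the Ensembl release are not given in the sources used here. Counts were fitted with edgeR 4.0.16 in R 4.3.3 for 2 groups at a time, using TMM factors and the quasi-likelihood test (glmQLFTest). P-values were adjusted by Benjamini-Hochberg over all genes tested, those whose robust CPM (DESeq2 1.42.0) passed 1 throughout either group. The SE of a log2 fold change is the one the test statistic implies. CPM values use TMM-scaled library sizes. Correlations used log2 CPM (prior count 2). Ratios and figures used Python 3.11.15, numpy 2.4.6, pandas 2.3.3 and matplotlib 3.10.9. RPKM served for levels between genes. No 2 libraries were identical (26 replicate pairs, lowest chi-square per degree of freedom 12.3). Each group's samples are separate mice. The procedure was tested on simulated data.

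The members, lists, markers and tests were chosen with earlier results of these data known. Values of single mice are given for Psmb5, Psmb6, Psmb7 and, in each comparison, the 2 members of smallest p on either side of 0. Of 46 listed pathway genes 45 were tested, all but Paaf1. From the lists, genes with an adjusted p under 0.05 are named, otherwise the gene with the smallest p, and in some comparisons that gene is not reported here.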

Additional observations from a re-analysis of the deposited data

Results flagged for a closer look

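Single mice were far from the rest of their group in 3 of the 39 sets of values tested (9 genes, 3 ratios and the median deviation of the subunits, each in 3 groups), judged by the gap to the nearest mouse over the range of the group. Chance marks about 1 in 20 such sets. Psmd11 in APP/PS1 mouse 16 was 46.0 CPM, where the next mouse was at 49.5 CPM and the highest at 50.5 CPM, and this is the mouse with 1990 CPM of striatum markers. Psmd9 in CP2-treated mouse 21 was 19.9 CPM, where the next was at 17.9 CPM. Psmd1 in NTG mouse 9 was 121 CPM, where the others were between 130.0 and 131 CPM.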

How the results depend on the processing

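Each group held 4 to 5 mice, which limits the precision. No paired analysis was possible because the groups share no mouse numbers. Over all genes, DESeq2 called 1667 in APP/PS1 against NTG, 23 in CP2-treated against vehicle-treated APP/PS1 and 1670 in CP2-treated APP/PS1 against NTG mice, against 932, 1 and 989 by edgeR. In the second comparison 1 fit of all 3 groups called 0 genes and left 1 subunit with an unadjusted p under 0.05, and the ribosomal RNA-like share as a covariate gave 2 genes, 0 subunits and -0.0137 for Psmd11. Leaving out each mouse in turn gave 578 (without NTG mouse 9) to 1486 genes (without APP/PS1 mouse 16), 0 to 1 (0 without CP2-treated mouse 22), and 572 (without NTG mouse 9) to 1123. The called subunits then numbered 0 to 1 in CP2-treated APP/PS1 against NTG mice (Psmb5, without mouse 23) and 0 in the others, and those with an unadjusted p under 0.05 numbered 0 to 2, 1 to 7 and 2 to 12. Log2 fold changes in the second comparison ran from -0.0233 to 0.0254 for Psmd11 and from -0.0732 to 0.00516 for Psmb5.

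The median log2 fold change of the subunits stayed below 0 in both comparisons with CP2-treated mice under every setting run (-0.0951 to -0.0455 and -0.101 to -0.0313 over left-out mice) and changed sign in the first (-0.0221 to 0.0396, and -0.0034 with the ribosomal RNA-like share). With a pseudocount of 5 or with RPKM in place of counts, every ratio kept its direction and its side of the threshold. With 1 mouse fewer the exact test can only just reach the threshold: the ratio of Psmb8 to Psmb5 ran from 1.60 to 1.81 in the first comparison (adjusted p 0.0402 to 0.0643) and from 1.24 to 1.39 in the comparison of CP2-treated with NTG mice (0.0402 to 0.0643), that of Psmb9 to Psmb6 from 1.04 to 1.37 (0.0402 to 0.0804) and from 0.80 to 1.01 (0.0402 to 0.0643). In the second comparison they ran from -0.48 to -0.28 and from -0.45 to -0.12, and that of Psmb10 to Psmb7 from -0.078 to 0.019 in the comparison of CP2-treated with NTG mice. Where a call changed, the cause was not tested.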

Other observations

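Gene sets outside the proteasome varied with its subunits as well. With the group means removed, 74 genes of cytosolic ribosomal proteins had a median correlation over the 14 mice of 0.54 with the subunit genes and 36 genes of nuclear-encoded complex I subunits one of 0.63, sets that were chosen after the data were seen. Among the pathway genes it was 0.68 for Pomp, the maturation factor of the core particle and 0.67 for Uchl5, a deubiquitinase of the regulatory particle. It was -0.57 for Ddi2, the protease that activates Nfe2l1. These values describe the same 14 libraries.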
